A study of Homo sapiens with 5 samples.

Results

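The 138 genes described here are the ZNF zinc finger genes with a summed raw count of at least 1000 over 5 RNA-seq libraries of SW620 (a colon carcinoma line of human origin). They were selected on that sum. They were taken from the 527 genes in the count table whose symbol is ZNF followed by a number, and from 25343 genes in all. Of the other ZNF genes, 389 summed under 1000 counts, and 63 of those had no read. Because the genes were chosen by this summed count, their level over all libraries is a description. Just inside the limit lay ZNF692 with a sum of 1001 and ZNF557 with 1003, and just outside it ZNF845 with 995 and ZNF140 with 985. The sums had a median of 1789.5 and reached 12503, and the lowest count of any of the 138 genes in any library was 37. All 138 passed the filter on low counts and entered the test.

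Every library came from SW620 cells of genotype tet-MUC1shRNA, a tetracycline-inducible short hairpin RNA against the transmembrane mucin gene MUC1, which the neg cells carry too. There are 3 libraries called neg, numbered 1, 2 and 3, and 2 called pos, numbered 1 and 3 (pos 1 and pos 3 below). The cells were given vehicle or doxycycline, the labels do not say which name is which, and neg and pos are therefore kept as names. Library totals were 10888704 to 14137678 counts, and the labels do not say whether the libraries of a group came from separate cultures, so p-values measure the spread between these libraries, which may be technical. The labels do not say if the tet-MUC1shRNA cells are 1 clone or a pool, and no library of doxycycline-treated cells with a control hairpin was analysed here.

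MUC1 had 176, 252 and 218 counts in the neg libraries and 27 and 13 in the pos libraries. In CPM (read counts scaled to library size with TMM factors) these were 12.3, 15.8 and 17.5 against 2.18 and 1.37, a log2 fold change of -3.07 (SE 0.34, edgeR quasi-likelihood adjusted p = 0.0270). The 2 pos libraries stood further from each other than any neg libraries did, with a chi-square per degree of freedom of 152 over all genes against 6.02 to 22.4 for neg pairs. Over the 138 ZNF genes it was 68.1 against 4.02 to 16.8. For that reason the pos libraries are also given apart. All 12 colon epithelial markers had a read, though CDX1, LGALS4 and CDH17 held 1, 27 and 56 reads over the 5 libraries together. Their summed level was 6937 to 8572 CPM without TMM scaling in neg, 8022 in pos 1 and 11571 in pos 3. Most of it is KRT8, KRT18 and KRT19, and other markers differed from them. CDH1 had 7487, 8157 and 6601 counts in neg against 2708 and 1022 in pos, KRT20 16, 31 and 23 against 0 and 4, and CDX2 308, 345 and 224 against 759 and 1180. Among markers of blood, stromal, endothelial and liver cells, PTPRC, HBB, CD3E and COL1A2 were at 0 in every library. The sum of the list was 77.4 to 84.8 CPM in neg, 55.8 in pos 1 and 48.3 in pos 3. Most of it is CD68, with 759, 747 and 543 counts in neg against 445 and 443 in pos. COL1A1 had 228, 259 and 204 against 79 and 59, and VWF 54, 61 and 32 against 3 and 14. LYZ went the other way, with 74, 94 and 61 against 145 and 133. Whether these shifts bear on the ZNF genes was not tested.

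A classical zinc finger is a short fold in which a pair of cysteines and a pair of histidines hold a zinc ion, and ZNF proteins usually carry several in a row, joined by a conserved linker, to read DNA base by base. Many also begin with a KRAB box, a domain that recruits the co-repressor TRIM28 (KAP1) and through it the histone methyltransferase SETDB1 and HP1 proteins, which silence chromatin. KRAB zinc finger genes arose by repeated duplication, often in clusters on chromosome 19, and are best known for silencing transposable elements. Other ZNF proteins act as ordinary promoter factors, and a few work on ribosomes, RNA or the mitotic spindle.

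The 2 ZNF genes past the threshold of the test, ZNF32 and ZNF385C, and the KRAB gene ZNF3 show what these folds look like in the genes measured. In each stretch of coding sequence below (GRCh38, GENCODE 44) the capitals mark the codons of the cysteines and histidines, followed in ZNF32 and ZNF3 by those of the linker to the next finger. The stretches lie at chr10:43644476-43644553 (minus strand, exon 3 of ZNF32), chr17:42062856-42062924 (minus strand, exon 2 of ZNF385C) and chr7:100071803-100071880 (minus strand, exon 6 of ZNF3).
ZNF32 finger: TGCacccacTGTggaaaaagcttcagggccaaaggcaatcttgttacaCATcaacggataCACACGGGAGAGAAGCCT
ZNF385C finger: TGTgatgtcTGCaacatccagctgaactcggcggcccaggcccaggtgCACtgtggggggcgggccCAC
ZNF3 finger: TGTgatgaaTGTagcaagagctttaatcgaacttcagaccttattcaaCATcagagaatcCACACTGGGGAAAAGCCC
The ZNF385C finger is not followed by the linker, and its histidines stand further apart than those of ZNF32 and ZNF3. It was found by its spacing of cysteines and histidines alone, and whether it reads DNA was not tested.

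The KRAB box was searched for in the translated coding sequence as a core in which at least 7 of 9 fixed amino acids match. The 4 KRAB genes that are named below for their levels all match at 9 of 9, and their codons for those amino acids are in capitals. They lie at chr7:100075160-100075216 (minus strand, exon 5 of ZNF3), chr19:7076426-7076482 (plus strand, exon 5 of ZNF557), chr19:9658034-9658090 (minus strand, exon 4 of ZNF562) and chr19:57856152-57856208 (plus strand, exon 2 of ZNF587).
ZNF3 KRAB core: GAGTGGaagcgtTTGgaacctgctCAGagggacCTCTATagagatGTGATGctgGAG
ZNF557 KRAB core: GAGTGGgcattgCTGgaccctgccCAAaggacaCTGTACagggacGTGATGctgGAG
ZNF562 KRAB core: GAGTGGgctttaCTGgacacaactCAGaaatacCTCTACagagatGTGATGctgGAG
ZNF587 KRAB core: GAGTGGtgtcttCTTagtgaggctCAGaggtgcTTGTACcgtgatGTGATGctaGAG

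Of the 138 genes, 137 are protein coding, ZNF252P being a pseudogene, and 56 encode a KRAB box by this search. The number of fingers found in the coding sequence ran from 0 to 36 with a median of 8, and 57 genes had at least 10. ZNF142 had the most, and ZNF330, ZNF503, ZNF703 and ZNF862 had none of the classical form. Chromosome 19 holds 38 of the genes, 27.5% against 6.96% of all tested genes, and 25 of those 38 carry a KRAB box. Their canonical transcripts were longer than those of all tested genes (median 4414.5 against 3242 nt) and lower in GC content (45.3% against 49.3%). Because they arose by duplication, sequence shared with another gene can split or misplace reads: 90 of the 138 transcripts share no 50-base window with another gene in the table, and 11 share more than 5% of their windows. ZNF587 shares 24.5%, mostly with ZNF417, ZNF761 shares 10.0% with ZNF765 and others, and ZNF468 shares 9.87% with ZNF28 and others, so values of these genes are uncertain.

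Per transcript length the level of the 138 genes was near that of tested genes at large. Selection for at least 1000 summed counts fixes part of that comparison, so it does not describe ZNF genes in general. In neg the 138 genes had a median of 6.88 CPM per kb against 7.47 over all tested genes, and ran from 1.01 to 76.9. The highest was ZNF593, a small nucleolar protein of ribosome assembly, at 76.9 ± 14 CPM per kb (SD, n = 3). Next came ZNF622, which acts in maturation of the large ribosomal subunit, at 53.6 ± 3.36, then ZNF146, a protein made of fingers alone, at 52.8 ± 11.4, and ZNF664 at 52.2 ± 6.23. ZNF703, a co-repressor of the NET family, stood at 41.8 ± 1.86 and ZNF581 at 32.7 ± 6.35. ZNF622, ZNF146 and ZNF664 did not differ from each other beyond their spread. ZNF581 and its neighbour ZNF580 overlap in the genome on the same strand (chr19:55635459-55645623 and chr19:55635016-55643470), so their reads may be shared.

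Between pos and neg, few of the ZNF genes passed the test. Of 138, 2 passed at an adjusted p of 0.05 (1.45%, against 9.2% of all 13604 tested genes): ZNF32 was higher in pos and ZNF385C lower. For single directions the shares were 0.725% against 5.06% higher and 0.725% against 4.13% lower. At an unadjusted p of 0.05 the count was 23 (16.7% against 34.6%), 8 of them higher (5.8% against 19.1%) and 15 lower (10.9% against 15.5%). The median log2 fold change of the 138 genes was -0.23, with quartiles of -0.60 and 0.08, against -0.05 over all tested genes, and 93 had a negative value. With the trend on transcript length that is described below removed, the median was 0.06. A missed threshold does not show that a gene stayed level: the 95% interval of the log2 fold change lay within -1 and 1 for 51 genes (37%, against 27.6% of all tested genes). The standard error had a median of 0.29 and ran from 0.17 to 0.64. Groups of libraries did not overlap in CPM for 63 of the genes (45.7% against 56%), with all pos values above neg in 15 (10.9% against 26.7%) and below in 48 (34.8% against 29.3%). The 9.2% called among all tested genes, used here and below, is not matched for transcript length or level. In the shortest of 5 length classes of equal size, up to 1740 nt, 16.2% of other genes and 12.5% of the 8 ZNF genes were called. In the longer classes, in order, other genes at the levels most ZNF genes have were called at 8.42%, 6.13%, 6.29% and 6.11%. The ZNF genes of those classes were called at 0%, 2.86%, 0% and 0%.

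ZNF32 (chr10:43643860-43648881, minus strand), a C2H2 protein with 6 fingers and no KRAB box, had 195, 177 and 127 counts in neg replicates 1, 2 and 3 and 498 and 620 in pos 1 and pos 3. In CPM it stood at 13.6, 11.1 and 10.2 in neg against 40.3 and 65.4 in pos. Both pos libraries were above every neg library, and the groups did not overlap. The log2 fold change was 2.18 (SE 0.28, edgeR adjusted p = 0.0316), the largest among the 138 genes.

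ZNF385C (chr17:42025576-42098479, minus strand), a relative of the p53 partner ZNF385A, had 328, 302 and 242 counts in neg and 100 and 84 in pos. In CPM it stood at 22.9, 19 and 19.5 in neg against 8.09 and 8.86 in pos. The pos libraries lay close together and below every neg library. Its log2 fold change was -1.27 (SE 0.22, edgeR adjusted p = 0.0381).

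Both calls needed all 3 neg libraries. Leaving out neg replicate 1, 2 or 3 left edgeR with 0 calls over all genes, at 3033, 2510 and 2607 genes with an unadjusted p under 0.05, and with log2 fold changes of 2.09 to 2.30 for ZNF32 and -1.32 to -1.18 for ZNF385C. With the replicate number as a block, adjusted p was 0.119 for ZNF32 and 0.394 for ZNF385C. DESeq2 passed 14 of the 138 genes (10.1% against 23.2% of all genes), 7 higher (5.07% against 13.2%) and 7 lower (5.07% against 10%), ZNF32 and ZNF385C among them.

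**Figure D1:**
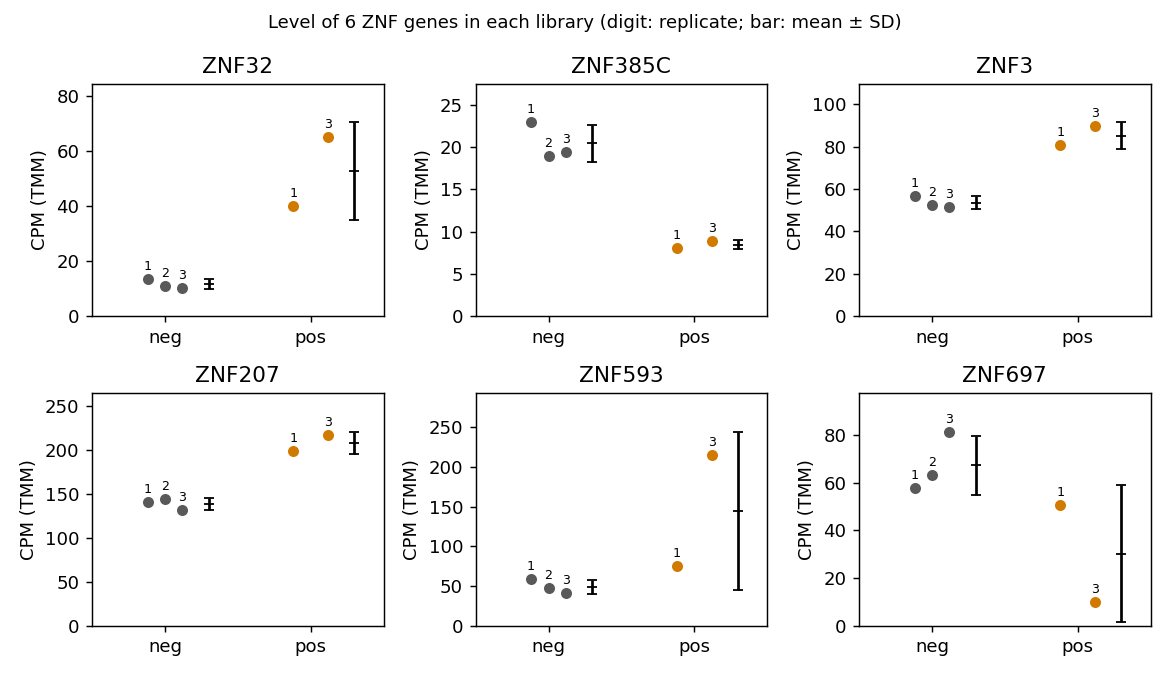
CPM (TMM-scaled) of 6 ZNF genes in each library, with neg in grey and pos in orange, the replicate number above each point and a bar for the mean ± SD of the group (neg n = 3, pos n = 2). ZNF32, ZNF385C, ZNF3 and ZNF207 have both pos libraries on one side of all neg libraries, at 40.3 and 65.4 CPM for ZNF32, while ZNF593 stands at 74.7 and 215 CPM in pos 1 and pos 3 and ZNF697 at 50.5 and 9.91.

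The pos libraries differed from each other in how the ZNF genes stood. As the log2 ratio of 1 pos library to the mean of the 3 neg libraries (log2 CPM with a prior count of 2), the median over the 138 genes was -0.07 in pos 1 (quartiles -0.30 and 0.25) and -0.52 in pos 3 (quartiles -1.12 and 0.06). Over all tested genes it was -0.01 and -0.10, and single neg libraries had ZNF medians of -0.06, -0.02 and 0.07. In pos 1, 2 of the ZNF genes were at least 2-fold lower than the neg mean (1.45% against 10.1% of all genes), whereas in pos 3, 42 were (30.4% against 24.2%). At least 2-fold higher were 1 gene in pos 1 (0.725% against 5.64%) and 9 in pos 3 (6.52% against 18.8%). Pos replicate 3 lay below pos 1 in 96 of the 138 genes (69.6% against 49.9%). The share of all counts that fell on the 138 genes was 0.560%, 0.609% and 0.662% in neg, 0.532% in pos 1 and 0.311% in pos 3. Below the lowest neg library were 60 genes in pos 1 (43.5% against 40.2%) and 93 in pos 3 (67.4% against 48.4%), and above the highest were 41 (29.7% against 38.8%) and 31 (22.5% against 42.4%).

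A fit with 1 pos library has no spread of its own for pos and assumes that it varies like neg, so its calls measure that library and not the group. With pos 3 alone, 89 of the 138 ZNF genes passed in edgeR (64.5% against 63.1% of all genes), 23 higher (16.7% against 30.9%) and 66 lower (47.8% against 32.1%). With pos 1 alone, 16 passed (11.6% against 31.3%), 7 higher (5.07% against 14.4%) and 9 lower (6.52% against 17%). In pos 3 most of the called ZNF genes were lower, and no test of the difference in shares was made. With the trend on transcript length removed, pos 3 alone gave 63 calls (45.7% against 51.6%), 34 higher (24.6% against 27.7%) and 29 lower (21% against 23.9%). Pos 1 alone then gave 26 (18.8% against 35.7%), 16 higher (11.6% against 16.9%) and 10 lower (7.25% against 18.8%).

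ZNF697 differed most between the pos libraries: its counts were 824, 1003 and 1011 in neg, 624 in pos 1 and 94 in pos 3. Its log2 ratios were -0.40 and -2.73, and its fold change did not pass (-1.15, SE 0.64, edgeR adjusted p = 0.244). ZNF507 had 489, 607 and 528 counts in neg, 518 in pos 1 and 82 in pos 3, at log2 ratios of 0.14 and -2.12. ZNF644, a partner of the histone methyltransferases EHMT1 and EHMT2, had ratios of -0.07 and -2.04. ZNF711, an X-linked gene known from intellectual disability, had ratios of -0.43 and -2.33. In all of these 4 genes pos 3 was the lowest of the 5 libraries, and in ZNF507 and ZNF644 pos 1 lay within the range of neg.

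The ratios of the ZNF genes followed transcript length, as did those of all genes. Across the 138 genes Pearson's r between log length and log2 ratio was -0.28 in pos 1 and -0.70 in pos 3, against -0.23 and -0.62 across the 13258 tested genes with a known length. These genes share libraries and depth, so r is a description.

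**Figure D2:**
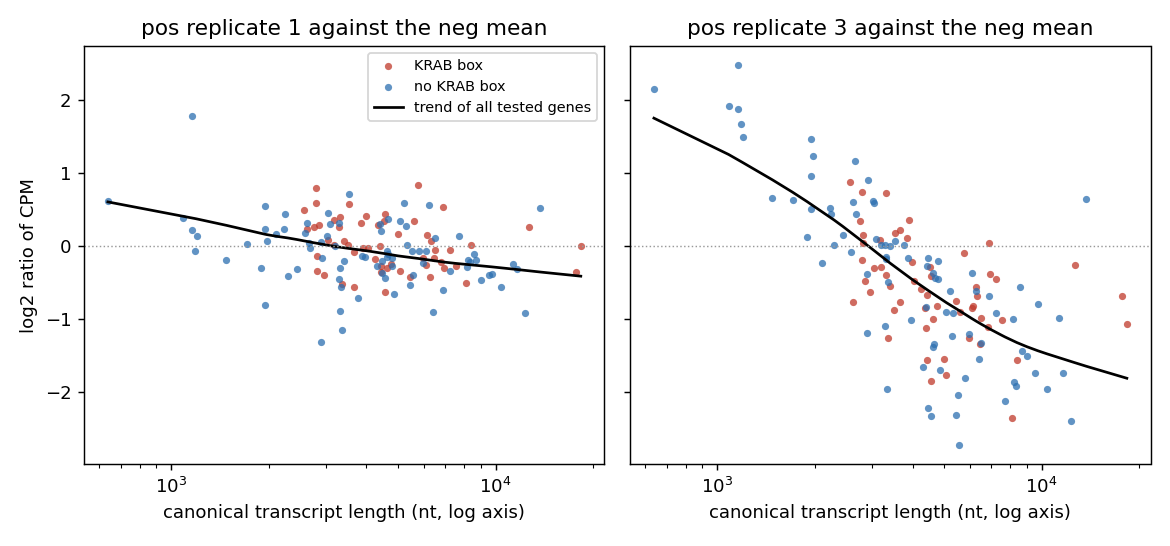
Log2 ratio of CPM in pos 1 (left) and pos 3 (right) to the neg mean, against canonical transcript length in nt on a log axis, for the 138 ZNF genes, red with and blue without a KRAB box, with the lowess trend of all tested genes as a black line. Points scatter around a shallow slope on the left and a steep slope on the right, where ratios run from 2.48 down to -2.73.

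When all tested genes were divided into 5 length classes of equal size, the medians of the ZNF genes went down with length, as those of the other genes did. In the shortest class, up to 1740 nt, 8 ZNF genes had a median log2 ratio of 1.77 in pos 3 against 1.18 for the other genes. From there to 2683 nt 16 ZNF genes had 0.48 against 0.45, and in the middle class 35 had -0.00 against -0.14. From 3860.2 to 5684 nt, 39 ZNF genes had -0.90 against -0.65, and above that 40 had -1.01 against -1.25. In pos 1 the 5 ZNF medians were 0.18, 0.17, 0.01, -0.14 and -0.20, against 0.37, 0.12, -0.04, -0.12 and -0.26. Single neg libraries had slopes as well. The ZNF medians of neg replicate 1 against the neg mean were 0.23, 0.07, 0.02, -0.15 and -0.17. Those of neg replicate 3 ran the other way, at -0.21, -0.04, -0.04, 0.16 and 0.15, and replicate 2 stayed between -0.03 and 0.00. Among the ZNF genes a slope of the size in pos 1 was thus also present within neg. Among the other genes the slope of pos 1 was steeper than that of any neg library. Their medians in the shortest and longest class were 0.37 and -0.26 in pos 1, 0.14 and -0.12 in neg replicate 1, and -0.14 and 0.14 in neg replicate 3. Most of the ZNF genes lie in the longer 2 classes. With a smooth trend on length taken off, the median over the 138 genes was 0.02 in pos 1 and 0.01 in pos 3. With length and mean level taken off it was -0.01 in each. In pos 3, 11 ZNF genes were at least 2-fold below the length trend (7.97% against 13.8% of all genes) and 6 at least 2-fold above it (4.35% against 9.95%). In pos 1 there were 2 below (1.45% against 9.81%) and 2 above (1.45% against 3.44%).

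The short genes show the upper end of this slope. ZNF593 (638 nt) had 58.8, 47.1 and 41.3 CPM in neg, 74.7 in pos 1 and 215 in pos 3. Both pos values were above neg, but far from each other, and the log2 fold change of 1.56 (SE 0.44) did not pass (edgeR adjusted p = 0.0726). Against the length trend its ratios were 0.01 and 0.39. ZNF511, ZNF580, ZNF524 and ZNF581, with transcripts of 1084 to 1197 nt, had ratios of 1.49 to 1.92 in pos 3 and of -0.07 to 0.39 in pos 1. ZNF32 is as short, at 1159 nt, but kept ratios of 1.40 and 1.30 after the length trend.

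Of the genes far below the trend in pos 3, ZNF697 stood at -1.84, ZNF146 at -1.75 and ZNF711 at -1.70. ZNF146 had 143, 170 and 218 CPM in neg, 118 in pos 1 and 44.8 in pos 3. Its pos values were both below neg, but its log2 fold change of -1.12 (SE 0.44) did not pass (edgeR adjusted p = 0.138). ZNF664 (202, 220 and 254 CPM in neg, 185 and 71.1 in pos) had the same order of libraries, with a log2 fold change of -0.81 (SE 0.41, edgeR adjusted p = 0.210). ZNF385C was below the trend by a like amount in both pos libraries, at -1.34 and -1.20.

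With the length trend of each library taken off inside the fit, 7 of the 138 genes passed (5.07% against 14% of all genes), 6 higher in pos (4.35% against 7.34%) and 1 lower (0.725% against 6.65%). With level removed as well, the counts were again 6 (against 7.08% of all genes) and 1 (against 6.45%), 7 genes in all (against 13.5%). With GC content removed in place of level, 27 passed (19.6% against 26%), 15 higher (10.9% against 13.4%) and 12 lower (8.7% against 12.6%). ZNF32 (log2 fold change 1.36, SE 0.16, edgeR adjusted p = 0.0101) and ZNF385C (-1.29, SE 0.19, edgeR adjusted p = 0.0150) passed in both fits, which was true of 1.45% of the ZNF genes against 6.42% of all. The other 5 were ZNF3, ZNF207, ZNF557, ZNF562 and ZNF587.

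ZNF3, a KRAB protein with 8 fingers, had 56.9, 52.4 and 51.4 CPM in neg against 80.8 and 89.6 in pos, without overlap. Its log2 fold change was 0.67 (SE 0.18, edgeR adjusted p = 0.0651), and once length was accounted for 0.62 (SE 0.14, adjusted p = 0.0352). ZNF207 (BuGZ), which binds microtubules and loads BUB3 at kinetochores, had 140, 144 and 131 CPM in neg against 199 and 217 in pos, again without overlap. Its log2 fold change was 0.58 (SE 0.17, edgeR adjusted p = 0.0793), and 1.73 with the trend removed (SE 0.39, adjusted p = 0.0358). The canonical transcript of ZNF207 is 13740 nt long while the median of its basic transcripts is 2283 nt, and with the trend taken on that median the value was 0.49 (adjusted p = 0.0613). That fit passed 8 of the 138 genes (5.8% against 11.5%), 7 higher (against 5.91%) and 1 lower (against 5.54%). The size and the call for ZNF207 therefore rest on which transcript stands for the gene.

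ZNF557, ZNF562 and ZNF587 are KRAB genes of chromosome 19 in which the pos libraries did not both lie on the same side of neg. ZNF557 had 11.7, 15.5 and 13.6 CPM in neg against 24.3 and 12.7 in pos. ZNF562 had 32.3, 35.4 and 39.1 against 42.4 and 29.6, and ZNF587 had 18.2, 21.9 and 20.5 against 29.4 and 20.8. As measured, their log2 fold changes were 0.44, 0.02 and 0.31. With the trend removed they were 0.93, 1.0 and 0.98 (SE 0.19, 0.23 and 0.19, edgeR adjusted p = 0.0317, 0.0367 and 0.0275). In each, pos 1 was the highest library, and pos 3 was within or below neg while long genes as a group were lower there. With the length trend removed and neg replicate 1, 2 or 3 left out, 0 of the 138 genes passed in edgeR. At an unadjusted p under 0.05 there were 9, 7 and 11 higher and 7, 3 and 4 lower. Over all genes it was 3170 of 13443, 2707 of 13420 and 2980 of 13474 in either direction, a larger share each time.

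**Figure D3:**
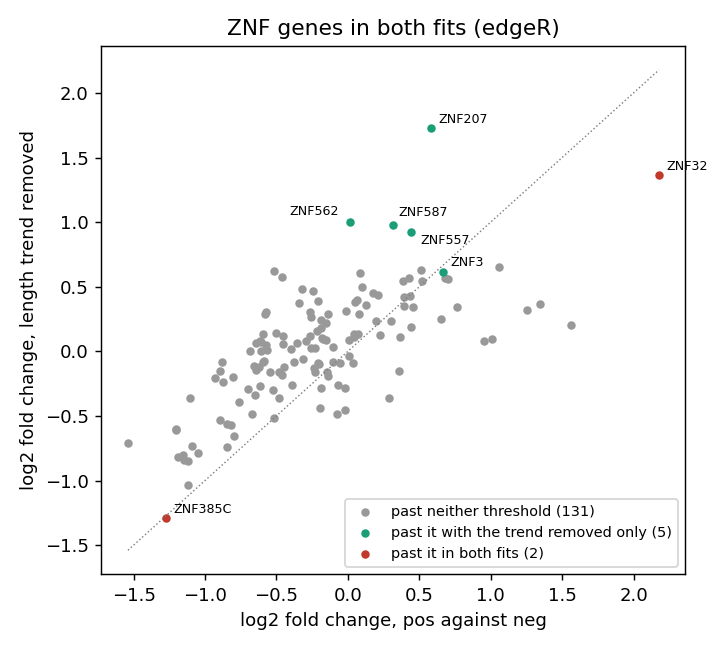
Log2 fold change of pos against neg for the 138 ZNF genes as measured (horizontal) and with each library's length trend removed (vertical), with a dotted line of equality. ZNF32 and ZNF385C (red) pass in both fits, 5 genes (green) pass only with the trend removed, and 131 (grey) pass in neither.

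The median of the KRAB genes was below neg in pos 3 and near it in pos 1. Over the 56 with a KRAB box the median log2 ratio was -0.00 in pos 1 and -0.61 in pos 3, and over the 82 without it was -0.12 and -0.41. After the length trend these were 0.08 and 0.01 with a KRAB box and -0.03 and 0.03 without. None of the 56 passed in edgeR (against 9.2% of all genes), and at an unadjusted p under 0.05 there were 2 higher and 5 lower (against 19.1% and 15.5%). DESeq2 passed 1 higher and 1 lower, ZNF3 and ZNF28 (against 13.2% and 10%). With the length trend removed 4 passed, all higher: ZNF3, ZNF557, ZNF562 and ZNF587. That is 7.14% of the 56, near the 7.34% of all genes called higher in that fit. The difference between the 2 classes was not tested.

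The next 4 KRAB genes were picked after their values were seen, and none passed in edgeR. ZNF274, which also carries a SCAN domain and brings SETDB1 to the ends of other ZNF genes, had 28.9, 25.3 and 26 CPM in neg against 21.0 and 27.6 in pos, within overlap (log2 fold change -0.14, SE 0.22, edgeR adjusted p = 0.667). ZNF445, a regulator of imprinted genes, had 18.3, 25 and 28.6 against 23.5 and 11.2, with a log2 fold change of -0.46 (SE 0.38, edgeR adjusted p = 0.406). ZNF226 had 12.3, 13.6 and 14.7 against 19.1 and 25, all pos above neg, with a log2 fold change of 0.70 (SE 0.22, edgeR adjusted p = 0.0891). ZNF589 had 35.5, 34.2 and 42.8 against 26.1 and 15.5, all pos below neg, with -0.85 (SE 0.29, edgeR adjusted p = 0.100).

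The 38 ZNF genes on chromosome 19 stood somewhat higher than the other 100. Their median log2 ratios were 0.14 and -0.30 in pos 1 and pos 3, against -0.14 and -0.65 elsewhere. After the length trend they were 0.18 and 0.20, with 24 and 21 of 38 above the trend, against 0.00 and -0.03 elsewhere. The 909 other tested genes of chromosome 19 had medians of -0.12 and 0.24 after the trend. None of the 38 passed in edgeR (against 9.2% of all genes), 3 were higher and 2 lower at an unadjusted p under 0.05 (against 19.1% and 15.5%), and DESeq2 passed 2 in each direction (against 13.2% and 10%). The difference by chromosome was not tested.

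**Figure D4:**
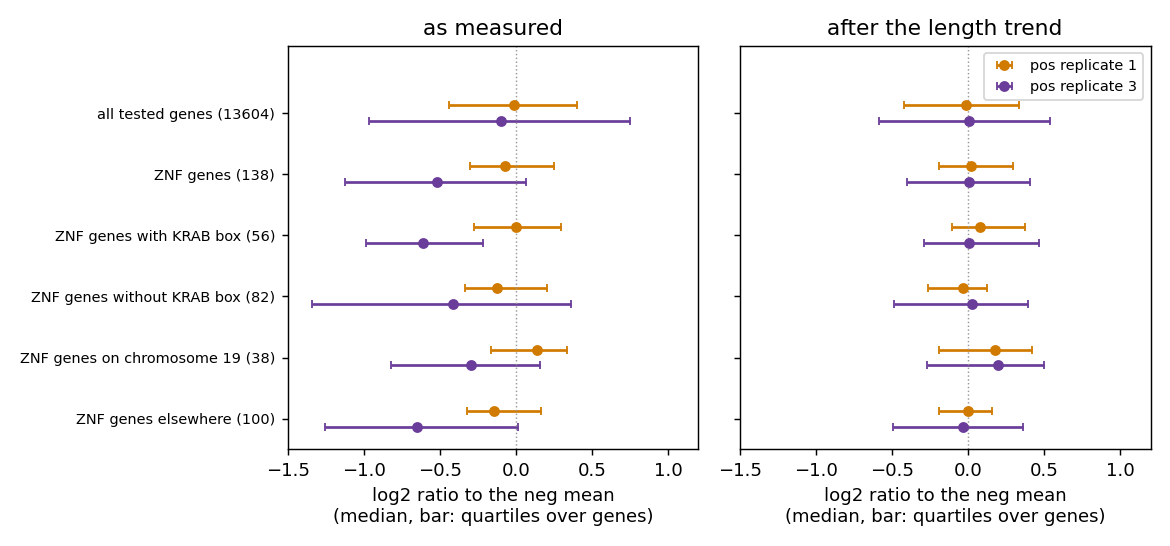
Median log2 ratio to the neg mean (points) with quartiles over genes (bars), as measured (left) and after the trend on transcript length (right), for all tested genes and classes of ZNF genes, with pos 1 in orange and pos 3 in purple. As measured, every ZNF class has a lower median in pos 3 than in pos 1, and after the trend the medians lie between -0.03 and 0.20.

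Among 16 ZNF genes that act as sequence-specific promoter factors or co-regulators, a list written after the values were seen, 0 passed in edgeR (against 9.2% of all genes), with 0 higher and 1 lower at an unadjusted p under 0.05 (against 19.1% and 15.5%) and 0 higher and 1 lower in DESeq2 (against 13.2% and 10%). Their median log2 fold change was -0.23. ZNF143, a general promoter factor, had 32.9, 32.4 and 30.2 CPM in neg against 33.3 and 24.4 in pos. Its paralog ZNF76 had 22.7, 16.5 and 14 against 17.9 and 39.2. Both overlapped between groups. ZNF281, a repressor linked to MYC and to stem cell genes, had 31.5, 35.1 and 39.1 against 22.3 and 10.8, all pos below neg, at a log2 fold change of -1.09 (SE 0.35, edgeR adjusted p = 0.0887). ZNF217, an oncogene of the CoREST complex, had 46.0, 54.4 and 65.1 against 52.3 and 15.5. ZNF410, an activator of CHD4, had 64.4, 57.8 and 47.3 against 69.9 and 85.1, all pos above neg, with 0.46 (SE 0.22, edgeR adjusted p = 0.193). ZNF503, the other NET family gene beside ZNF703, was nearly level at 45.2, 47.7 and 44.6 against 46.0 and 46.3 (log2 fold change 0.01, SE 0.18, edgeR adjusted p = 0.972).

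Of 8 ZNF genes that work on ribosomes, RNA or other proteins, a list likewise written after the values were seen, 0 passed in edgeR (against 9.2% of all genes), with 2 higher and 2 lower at an unadjusted p under 0.05 (against 19.1% and 15.5%). DESeq2 passed 2, ZNF593 and ZNF207, both higher (against 13.2% of all genes). Their median log2 fold change was 0.10. ZNF598, the ubiquitin ligase that marks collided ribosomes, had 83.5, 87.6 and 74.1 CPM in neg against 36.5 and 57.7 in pos. Unlike most of the 138 genes it was lower in pos 1 than in pos 3, with ratios of -1.16 and -0.50, and its log2 fold change of -0.80 (SE 0.26) did not pass (edgeR adjusted p = 0.0924). ZNF622 had 98.0, 89.5 and 87.0 against 93.0 and 141. ZNF451, a ligase for the modifier SUMO2, had 52.6, 60.2 and 66.4 against 75.5 and 31.8, on either side of neg. A list of 11 genes with a SCAN domain, also written after the values were seen, had a median log2 fold change of -0.14. Of these, 0 passed in edgeR (against 9.2% of all genes), with 1 higher and 1 lower at an unadjusted p under 0.05 (against 19.1% and 15.5%). DESeq2 passed ZNF444, which was higher (against 13.2% of all genes).

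The genes through which KRAB proteins repress were given from a list of 40, all tested. In edgeR 2 passed, both higher in pos (5% of the list, near the 5.06% of all genes called higher), and the median log2 fold change was 0.01. DESeq2 passed 3 higher (SUMO2, SUMO3 and SUV39H1) and 2 lower (RCOR1 and TRIM24), against 13.2% and 10% of all genes. SUMO2, a small protein modifier whose attachment to TRIM28 helps recruit SETDB1, had 122, 117 and 117 CPM in neg against 235 and 227 in pos, with a log2 fold change of 0.97 (SE 0.17, edgeR adjusted p = 0.0382). SUMO3, which is nearly identical in protein, had 58.2, 58.0 and 60.8 against 107 and 140, with 1.06 (SE 0.20, edgeR adjusted p = 0.0390). In both genes the groups did not overlap. Without neg replicate 1, 2 or 3 these 2 calls ended too, with 0 of the list passing. TRIM28 itself had 389, 352 and 302 CPM against 395 and 600, with 0.52 (SE 0.25, edgeR adjusted p = 0.195). SETDB1 had 46.6, 46.4 and 42.9 against 61.7 and 59.9, with 0.42 (SE 0.18, edgeR adjusted p = 0.148) and 0.78 once length was accounted for (SE 0.18, adjusted p = 0.0380). In that fit 4 of the list passed, all higher (10% against 7.34% of all genes). The other 3 were SUMO2 (1.03), RBBP4 (0.97) and SUMO3 (0.59, edgeR adjusted p = 0.04996). RBBP4 had 155, 156 and 147 CPM in neg against 258 and 123 in pos, on either side of neg. CHD4, the target of ZNF410, had 512, 551 and 625 against 500 and 374, with -0.36 (SE 0.22, edgeR adjusted p = 0.282).

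Of the zinc finger genes that the name or the count limit left out, 11 were called in edgeR. Of the 389 ZNF genes under 1000 counts, 270 passed the filter on low counts, and of those 3 were called higher and 5 lower in edgeR (2.96% in all, against 9.2% of all genes). ZNF219 had the largest rise, with 122, 108 and 87 counts in neg against 252 and 317 in pos (log2 fold change 1.85, SE 0.28, edgeR adjusted p = 0.0339). ZNF469 had the largest fall, with 64, 70 and 83 against 12 and 10 (-2.34, SE 0.37, edgeR adjusted p = 0.0351). Of 38 ZBTB, 13 ZFP, 7 ZKSCAN and 14 ZSCAN genes tested, 3 were called, all lower: ZBTB21 (-2.19), ZFP41 (-1.43) and ZKSCAN2 (-1.24). These are 4.17% of the 72, near the 4.13% of all genes called lower. At an unadjusted p under 0.05 in edgeR, 3 of the 72 were higher and 18 lower (against 19.1% and 15.5% of all genes). All pos values lay above neg in 5 and below in 29 (against 26.7% and 29.3%). ZBTB21 had 439, 530 and 508 counts in neg against 132 and 43 in pos, without overlap. The 270 ZNF genes had a median log2 fold change of -0.07, the ZBTB genes -0.43, the ZFP genes -0.66, the ZKSCAN genes -0.34 and the ZSCAN genes 0.04. With the length trend removed these medians were 0.11, -0.05, -0.42, -0.09 and 0.18.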

How the data were processed

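Libraries were stranded mRNA (TruSeq Stranded mRNA), per the labels' protocols. The authors deposited raw counts per gene symbol for 5 libraries. The submitters' processing notes list CASAVA 1.8.2, STAR 2.5.2b and DESeq2 1.24.0. The build is hg19 in those notes and GRCh38 in the labels' protocols, so genes were joined by symbol and coordinates come from GENCODE 44 (GRCh38). How reads were counted, and whether by strand, is not given in the sources used here. Reads of overlapping genes therefore cannot be told apart. The table had 25435 rows, of which 92 spike-in rows at 0 reads were left out.

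Counts were fitted in R 4.3.3 with edgeR 4.0.16: filterByExpr (minimum count 10, minimum total 15), TMM, glmQLFit and glmQLFTest of pos against neg over all 5 libraries, two-sided, Benjamini-Hochberg adjustment over 13604 genes at 0.05. SE was computed as the fold change (log2) over the root of F. In totals of 10888704 to 14137678 counts, 3 counts equal 0.212 to 0.276 CPM, which covers counting error only. Library ratios used log2 CPM with a prior count of 2. Length trends were lowess fits (span 0.3) on log canonical transcript length. For the edgeR fit they were fitted to each library's log2 CPM minus the gene's mean over the libraries. For library ratios they were fitted to the log2 ratio to the neg mean. Genes without a known length took, in the edgeR fit, the trend value at the median length. The edgeR step was tested on simulated data.

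The ZNF genes and all lists were chosen with earlier results of these data known. Genes named were those called in edgeR, the 6 highest per length in neg, 2 on either side of 1000 counts, the 4 whose pos libraries differ most, those called in both fits, and called genes of the KRAB pathway list. Other genes named, such as those called only with the length trend removed and the role examples, were chosen after their values were seen. Alternatives were DESeq2 1.42.0, limma-voom (limma 3.58.1), DESeq2 size factors, library size only, no filter, a minimum of 5 CPM in 2 libraries, leaving out single libraries, a replicate block, trends on length, length with GC or level, and limits of 500 and 2000 counts. The trend on median basic transcript length, and the length trend with a neg library left out, were added after seeing the data. A marker of the other cell types is not reported here.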

Additional observations from a re-analysis of the deposited data

How the results depend on the processing

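The median log2 fold change of the 138 ZNF genes was negative in all fits run except those that removed a length trend, where it was 0.01 to 0.07. Library size scaling moved it from -0.23 to -0.57 (all genes: -0.05 to -0.41) and the split of all calls from 689 higher and 562 lower to 148 and 458. In the same order throughout (all genes called, ZNF genes higher, ZNF genes lower, KRAB pathway genes, other zinc finger genes), edgeR gave 1251, 1, 1, 2 and 11. DESeq2 gave 3161, 7, 7, 5 and 30. Removing the trends on length and GC gave 3543, 15, 12, 8 and 55. Removing the length trend gave 1902, 6, 1, 4 and 27. Library size only gave 606, 1, 2, 0 and 7. With length and level removed, 6 ZNF genes were higher and 26 other zinc finger genes were called. With the median basic transcript length, these were 7 and 19.

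Whether the replicate numbers pair the samples is not known. Same-numbered deviations from the group means correlated at -0.44 and -0.45 over 2 shared numbers. With 2 pos libraries the pos deviations are equal and opposite, so these values are not independent and cannot decide it. With the replicate block 87 genes were called and 0, 0, 0 and 0 of the lists. At an unadjusted p under 0.05, 2 ZNF genes were higher and 6 lower, against 1669 of all 13604 genes in either direction. The replicate block with the length trend removed gave 416 genes, 1 ZNF gene higher (ZNF207, log2 fold change 1.63, adjusted p = 0.0127), 0 ZNF genes lower, 0 pathway genes and 3 other zinc finger genes.

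With each library left out in turn, calls ran from 0 to 8819 over all genes, 0 to 23 higher and 0 to 66 lower ZNF genes, 0 to 25 pathway genes and 0 to 171 other zinc finger genes. With the length trend removed as well they ran from 0 to 7222, 0 to 34, 0 to 29, 0 to 22 and 0 to 145. The highest counts came without pos replicate 1, where the lone pos library is assumed to vary like neg. Without pos replicate 3, 7 ZNF genes were higher and 9 lower, and 16 and 10 with the length trend removed (4996 genes in all, 9 of the pathway, 106 other zinc finger genes). With the trend removed and a neg library left out, 0, 20 and 3 genes were called, 0 of them from the lists.

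With a limit of 500 counts, which takes a larger set that holds the 138, 4 ZNF genes were higher and 4 lower. Of all tested genes 5.06% were called higher and 4.13% lower, a larger share in each direction. The ZNF medians in pos replicates 1 and 3 at that limit were 0.00294 and -0.442. With a limit of 2000, 0 were called in edgeR and pos replicate 3 had -0.452, or -0.216 after length and level. With GC in place of level that median was 0.0753. With library size only the pos medians were -0.21 and -1.18. The cause of these changes was not tested. Precision is limited by the 2 pos libraries, at a median SE of 0.29 over the 138 genes.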
